A study of Mus musculus with 16 samples.

Results

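The cytosolic ribosomal protein genes of mouse muscle were followed after denervation. Members were the rows of the deposited table whose gene name begins with Rpl, Rps or Rplp and goes on with a ribosomal protein number, an optional letter and an optional l for a like-gene. Names marked -ps for pseudogenes were left out, as were Rpl3 and its muscle paralog Rpl3l. The rule took 88 of 55487 rows. They were 75 genes of the ribosomal proteins themselves, 6 paralogs (Rpl22l1, Rpl39l, Rps27l, Rpl36al, Rpl7l1 and Rpl10l), 6 rows that the GENCODE annotation of GRCm38 lists as processed pseudogenes (Rps3a2, Rps3a3, Rps12l1, Rpl6l, Rpl32l and Rps4l), and Rps6kl1, which fits the name pattern but encodes a kinase-like protein and no ribosomal protein. Of the 88 rows, 85 had enough counts to be tested in every comparison. The others were Rpl10l, Rpl39l and Rpl32l.

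Tissue was taken from young male C57BL/6J mice, with no engineered allele in any group, 21 days after surgery on the sciatic nerve. There were 4 groups of 4 libraries, namely fibers and whole muscle of DEN mice and fibers and whole muscle of sham mice. In DEN mice a piece of the nerve was removed on a single side, and in sham mice it was exposed and left intact. Fibers were single myofibers of the extensor digitorum longus (EDL) freed with collagenase and pooled for each library, whereas whole muscle was the entire tibialis anterior (TA), so that the muscle and the preparation cannot be told apart. Whether the EDL and TA of a group came from the same mice was not given. In these bulk libraries fewer cells of a type and less RNA per cell cannot be told apart.

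Every cytosolic ribosome is built from a large and a small subunit, each made of rRNA and of ribosomal proteins that are present mostly in a single copy. The mRNAs of these proteins are abundant, short, and begin with a run of pyrimidines right at the cap, the terminal oligopyrimidine (TOP) tract. Through this tract their translation depends on mTOR and the RNA-binding protein Larp1. In muscle, the number of ribosomes is known to limit how much protein a fiber can make, and denervated muscle is known for loss of contractile protein.

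The transcription start of the members is shown because the TOP tract is the feature that the family is best known to share. RefSeq promoters of GRCm38.p6 were matched by symbol for 64 of the 88 rows. A tract was counted where a C followed by further C or T, at least 6 letters in all, began within 10 bases either side of the annotated start on the transcribed strand. It was found in 32 of 64 members (50%) and in 19.2% of 27025 promoters. The next 8 windows run from 10 bases before the annotated start to 20 bases from it, 5′ to 3′, with the tract in capitals. Rpl27a, Rpl15 and Rpl7a were chosen for long tracts, Rps6 and Rplp2 for their roles, and Rpl13a, Rpl22l1 and Rps2 for high or low changes after DEN.
Rpl27a: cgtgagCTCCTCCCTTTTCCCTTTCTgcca
Rpl15: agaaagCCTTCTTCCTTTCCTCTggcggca
Rpl7a: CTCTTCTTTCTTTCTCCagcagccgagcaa
Rps6: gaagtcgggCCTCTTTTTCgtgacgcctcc
Rplp2: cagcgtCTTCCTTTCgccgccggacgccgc
Rpl13a: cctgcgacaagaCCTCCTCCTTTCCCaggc
Rpl22l1: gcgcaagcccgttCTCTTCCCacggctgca
Rps2: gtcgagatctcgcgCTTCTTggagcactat

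These windows lie at chr7:109519185-109519214 (plus strand), chr14:18270967-18270996 (minus), chr2:26910797-26910826 (plus), chr4:86857348-86857377 (minus), chr7:141447641-141447670 (plus), chr7:45128726-45128755 (minus), chr3:28805498-28805527 (plus) and chr17:24720053-24720082 (plus). The tract was 20 letters long in Rpl27a and 6 in Rps2, and it began at the edge of the searched window, 10 bases before the annotated start, in Rpl7a. No such tract was found in the same window of other members, of which Rpl19, Rps19, Rplp0 and Rpl7l1 are shown because the text returns to them.
Rpl19: aaacgccctcactgcgcatgtgcgccgcgg
Rps19: aatctcgcgagactcgacgcccgacttgtg
Rplp0: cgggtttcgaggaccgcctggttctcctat
Rpl7l1: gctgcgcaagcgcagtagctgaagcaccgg

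The 4 windows without a tract lie at chr11:98026700-98026729, chr7:24884582-24884611 and chr5:115559457-115559486 on the plus strand and at chr17:46782637-46782666 on the minus strand. An annotated start that is off by a few bases hides a tract, so the absence says only that these letters were not in the window. In the 300 bases around the start (250 before and 50 from it, both strands, motifs free to overlap), the ETS letters CCGGAA occurred in 48.4% of members and 15.2% of all promoters. The SP1 letters GGGCGG occurred in 60.9% and 35.9%, the YY1 letters AAGATGG in 14.1% and 6.48%, and the TATA letters TATAAA in 10.9% and 14.2%. Of the ribosomal protein genes matched, the 28 with a tract had a median log2 fold change of 0.55 in fibers and 0.82 in whole muscle, and the 28 without it had 0.54 and 0.79.

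Libraries held 47570214 to 62297405 counts. Genes encoded in the mitochondrion took 9.17 to 10.2% of counts in DEN fibers, 11.9 to 18.0% in sham fibers, 9.33 to 10.2% in DEN whole muscle and 12.2 to 14.8% in sham whole muscle. The 10 most abundant genes of each library took 14.7 to 16.0% in DEN fibers, 22.8 to 26.8% in sham fibers, 18.1 to 18.6% in DEN whole muscle and 25.8 to 26.9% in sham whole muscle. Of 7 genes that define muscle fibers (Acta1, Ckm, Myh4, Myh1, Tnnt3, Ttn, Mb) none was at 0, and their summed level was 74418 to 87292 RPM (a gene's counts scaled to a common library total) in DEN fibers, 113923 to 133395 in sham fibers, 95936 to 101611 in DEN whole muscle and 137480 to 152323 in sham whole muscle. The counts of markers that follow are set against all genes, of which 27.1% were called higher and 27.0% lower in fibers, and 34.0% and 32.2% in whole muscle, by the test given with the members. Of the 7 muscle fiber genes, 2 passed as higher and 4 as lower in DEN fibers, and 1 and 5 in DEN whole muscle. All 8 macrophage markers passed as higher in DEN fibers, with a summed level of 110.4 to 167 RPM against 23.2 to 48.9 RPM in sham fibers. In whole muscle 3 of the 8 were higher and 1 lower, at 115 to 126 RPM in DEN and 44.9 to 102 RPM in sham. The other lists, with markers tested, higher and lower in fibers and then in whole muscle, were lymphocytes (2 tested, 0 and 1, then 0 and 0), endothelial cells (5, 0 and 1, then 0 and 5), fibro-adipogenic progenitors (5, 1 and 0, then 0 and 2), muscle stem cells (5, 1 and 0, then 1 and 1), pericytes and smooth muscle (5, 2 and 0, then 0 and 5), Schwann cells (4, 0 and 2, then 0 and 2) and erythroid cells (3, 0 and 0, then 0 and 0). The summed level of the 5 muscle stem cell markers was 181 to 192 RPM in DEN fibers and 84.4 to 131 RPM in sham fibers. In whole muscle it was 82.6 to 96.5 RPM in DEN and 27.9 to 31.8 RPM in sham, again with no overlap between DEN and sham. Such separation in RPM, with DEN higher, held for 54.4% of all single genes in fibers and 57.0% in whole muscle. The summed level of the 4 Schwann cell markers was 5.94 to 27.5 RPM in DEN fibers and 44.0 to 93.5 RPM in sham fibers. In whole muscle it was 3.61 to 4.20 RPM in DEN and 13.5 to 22.3 RPM in sham, with DEN lower and no overlap in either preparation. The share of all genes separated with DEN lower was not counted. No marker of any list was at 0 in all libraries of a group. The part of these cell types in the ribosomal protein changes was not tested.

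Denervated muscle gave a larger share of its polyadenylated RNA to ribosomal proteins. Summed over the 88 rows, the share of a library's counts was 1.73 ± 0.0922% in DEN fibers and 0.864 ± 0.0696% in sham fibers (SD, n = 4 each). It was 1.73 ± 0.0552% in DEN whole muscle and 0.760 ± 0.0221% in sham whole muscle. The lowest DEN library of either preparation, at 1.61%, lay above the highest sham library, at 0.924%. DEN over sham gave a ratio of 2.00 in fibers and 2.27 in whole muscle, or 1.74 and 2.00 when the mitochondrial genes and the 10 most abundant genes were left out of the totals. Large subunit names made up 1.02% of a DEN fiber library on average against 0.516% of a sham fiber library, and small subunit names 0.706% against 0.348%. No test was made of these sums.

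**Figure D1:**
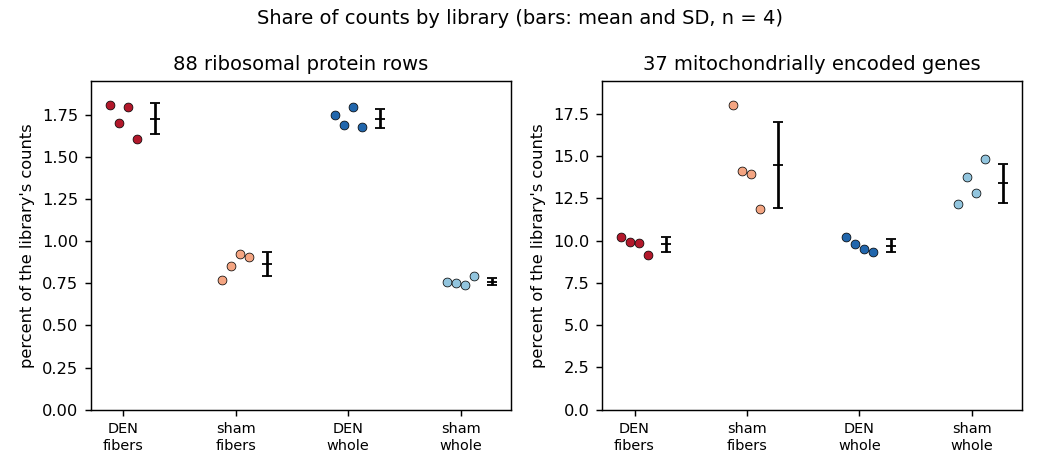
Share of each library's counts, in percent, taken by the 88 ribosomal protein rows (left) and by the 37 mitochondrially encoded genes (right). Points are libraries and bars are the mean and SD of 4; the ribosomal share was 1.61 to 1.81% in DEN fibers and 0.769 to 0.924% in sham fibers, and no DEN library overlapped a sham library.

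Nearly all members rose after DEN in both preparations. In fibers 78 of 85 tested members were higher in DEN (quasi-likelihood test of edgeR, with Benjamini-Hochberg adjustment over all genes and a threshold of 0.05), 1 was lower and 6 did not pass, where 27.1% of 16724 genes were called higher and 27.0% lower. In whole muscle 82 of 85 were higher, 1 was lower and 2 did not pass, where 34.0% of 16379 genes were called higher and 32.2% lower. The median log2 fold change of the members was 0.53 in fibers against 0.01 over all genes, and 0.77 in whole muscle against 0.02. The lower member was Rpl7l1 in fibers and the kinase-like Rps6kl1 in whole muscle, where Rps6kl1 averaged 0.921 ± 0.199 RPM in DEN and 1.64 ± 0.282 RPM in sham (log2 fold change -1.25 ± 0.18). Not passed in fibers were Rps6kl1, Rps4l, Rps2, Rpl22l1, Rps10 and Rpl36al, and in whole muscle Rps4l and Rpl7l1. Leaving out any library in turn gave 77 to 78 members higher in fibers and 81 to 82 in whole muscle.

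These fold changes were scaled with TMM factors, which set the middle of all genes near 0. RPM divide by the library total instead, and on that scale the median of all genes shifted by 0.49 in fibers and 0.45 in whole muscle, and the median of the members was 1.02 and 1.20. In RPM, every DEN library lay above every sham library for 82 of 85 tested members in fibers, where this held for 54.4% of all genes, and for 83 of 85 in whole muscle, where it held for 57.0%. The direction of Rpl7l1 in fibers changed with this choice, as given with the paralogs. The other called members kept their direction under both scalings.

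**Figure D2:**
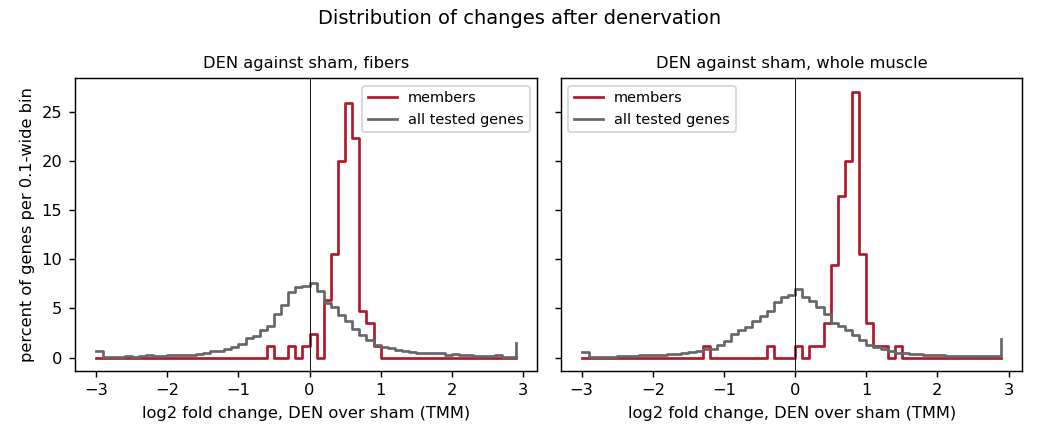
Distribution of log2 fold changes (DEN over sham, TMM scaling) of the 85 tested members and of all tested genes in fibers (left) and whole muscle (right), as percent of genes in bins 0.1 wide; changes beyond 3 in either direction are drawn in the end bins. The members gather around medians of 0.53 and 0.77, while all genes centre on 0.01 and 0.02.

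All 45 genes of the large subunit rose in both preparations, with a median log2 fold change of 0.53 in fibers and 0.76 in whole muscle. Of all genes, 27.1% were called higher in fibers and 34.0% in whole muscle. Rplp0, Rplp1 and Rplp2 form the stalk that recruits elongation factors. Rplp0 measured 881, 859.9, 909 and 827 RPM in DEN fibers against 358, 395, 436 and 438 RPM in sham fibers, and 867, 845, 907 and 822 RPM in DEN whole muscle against 338, 356, 339 and 379.8 RPM in sham whole muscle. No DEN library came near a sham library, and the log2 fold changes were 0.61 ± 0.07 (SE) in fibers and 0.85 ± 0.06 in whole muscle. Rplp1 rose by 0.41 and 0.65, and Rplp2 by 0.42 and 0.76, with adjusted p of 0.00035 and 2.6e-07.

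Rpl5 and Rpl11, which travel with the smallest rRNA of the large subunit and bind the p53 regulator Mdm2 when assembly fails, rose by 0.51 and 0.66 in fibers and by 0.70 and 0.86 in whole muscle. Around the exit of the peptide tunnel, Rpl23a rose by 0.40 in fibers and 0.59 in whole muscle, Rpl17 by 0.61 and 0.89, and Rpl26 by 0.48 and 0.69. Rpl39, which lines that tunnel, rose by 0.69 and 0.85. Rpl10, which joins the large subunit late in its maturation, rose by 0.61 and 0.89. Rpl41, the shortest of the ribosomal proteins, rose by 0.55 and 0.83, and Rpl38, which in mouse embryos is needed for translation of Hox mRNAs, by 0.55 and 0.84. These genes, of different place and role, rose by between 0.40 and 0.69 in fibers and between 0.59 and 0.89 in whole muscle.

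The small subunit followed the same course, with 28 of 30 genes higher in fibers and 30 of 30 in whole muscle and medians of 0.58 and 0.82. The shares of all genes called higher were 27.1% and 34.0%. Rps6, whose protein is phosphorylated downstream of mTOR, measured 223, 216, 232 and 214 RPM in DEN fibers against 100.2, 108, 119 and 115 RPM in sham fibers, and 226, 211, 225 and 212 RPM in DEN whole muscle against 91.2, 90.3, 92.03 and 93.7 RPM in sham whole muscle. Its groups did not overlap, and it rose by 0.51 ± 0.06 and 0.82 ± 0.05 (log2, SE). Rps3, at the mRNA entry, rose by 0.49 in fibers and 0.62 in whole muscle, and Rps25, which some viral mRNAs need to start translation in human cells, by 0.58 and 0.76. Of the genes whose loss in humans gives red cell failure, Rps19 rose by 0.83 and 1.08, Rps14 by 0.53 and 0.63, and Rps26 by 0.59 and 0.90. The small subunit genes that did not pass in fibers were Rps2 and Rps10.

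**Figure D3:**
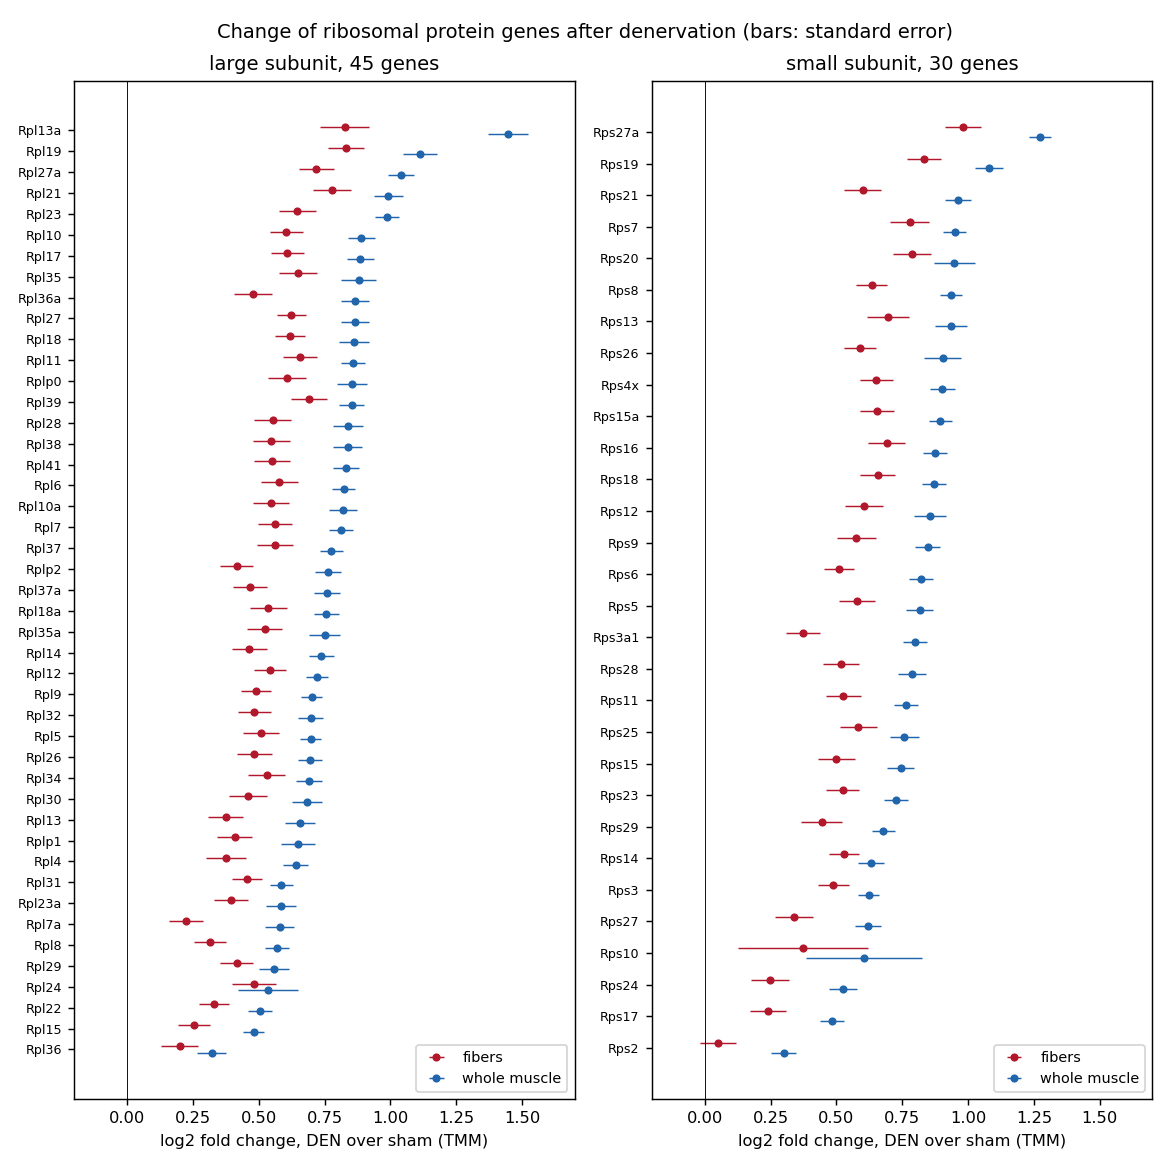
Log2 fold change (DEN over sham, TMM scaling) with its standard error for the 45 large subunit genes (left) and the 30 small subunit genes (right), in fibers (red) and whole muscle (blue), ordered by the whole muscle value. All points lie above 0, from 0.05 (Rps2, fibers) to 1.45 (Rpl13a, whole muscle), and each gene's fiber value lies below its whole muscle value.

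Several members are in common use as reference genes for quantitative PCR. All of them rose in DEN in both preparations, where 27.1% of all genes were called higher in fibers and 34.0% in whole muscle. Rps18 rose by 0.66 in fibers and 0.87 in whole muscle, Rpl32 by 0.48 and 0.70, Rpl27 by 0.62 and 0.87, and Rpl13a by 0.83 and 1.45. Rplp0, given above, belongs to this set too.

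The members with the highest values were nearly the same in both preparations. Rps27a, which encodes a ribosomal protein fused to ubiquitin, measured 226, 209.7, 216 and 192 RPM in DEN fibers against 67.04, 76.7, 78.2 and 83.1 RPM in sham fibers. In whole muscle it measured 215, 201, 207 and 205 RPM in DEN against 65.7, 60.8, 64.6 and 63.4 RPM in sham. The log2 fold change was 0.98 ± 0.07 (adjusted p = 3.7e-06) in fibers and 1.27 ± 0.04 (adjusted p = 2.4e-09) in whole muscle. Rpl19 measured 196, 174, 185 and 172 RPM in DEN fibers against 65.8, 69.4, 79.5 and 76.96 RPM in sham fibers, and 189.98, 182, 196 and 183 RPM in DEN whole muscle against 62.4, 60.96, 61.7 and 72.8 RPM in sham whole muscle. It rose by 0.83 ± 0.07 and 1.11 ± 0.07, and for both genes no DEN library overlapped a sham library. In fibers Rps19 (0.83 ± 0.06) was level with Rpl19, and in whole muscle the highest was Rpl13a, at 11.6, 10.8, 10.8 and 11.4 RPM in DEN against 3.25, 2.75, 2.91 and 3.25 RPM in sham. Rpl13a was counted at a low level for its family (9.52 ± 0.567 RPM in DEN fibers and 3.82 ± 0.357 RPM in sham fibers), and 29.4% of its exon bases lie under the annotated gene Gm45713 on the same strand.

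At the low end stood Rps2, Rpl36 and the paralogs Rpl22l1 and Rpl7l1. Rps2, at the mRNA channel of the small subunit, measured 332, 340.1, 346 and 341 RPM in DEN fibers against 209.6, 224, 258 and 246 RPM in sham fibers, where its TMM-scaled value was 0.05 ± 0.07 (adjusted p = 0.57). In whole muscle it rose by 0.30 ± 0.05 (adjusted p = 0.00022), at 369, 357, 389 and 358 RPM in DEN against 225, 222, 213 and 228 RPM in sham. Rpl36 rose by 0.20 ± 0.07 (adjusted p = 0.037) in fibers, at 125, 122, 128 and 100.02 RPM in DEN against 68.5, 75.3, 73.6 and 76.3 RPM in sham. In whole muscle Rpl36 rose by 0.32 ± 0.05, at 113, 111, 118 and 111 RPM in DEN against 67.2, 65.1, 63.8 and 73.8 RPM in sham. The RPM of these genes did not overlap between DEN and sham in either preparation, and their TMM-scaled values lay lower by the shift given above.

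**Figure D4:**
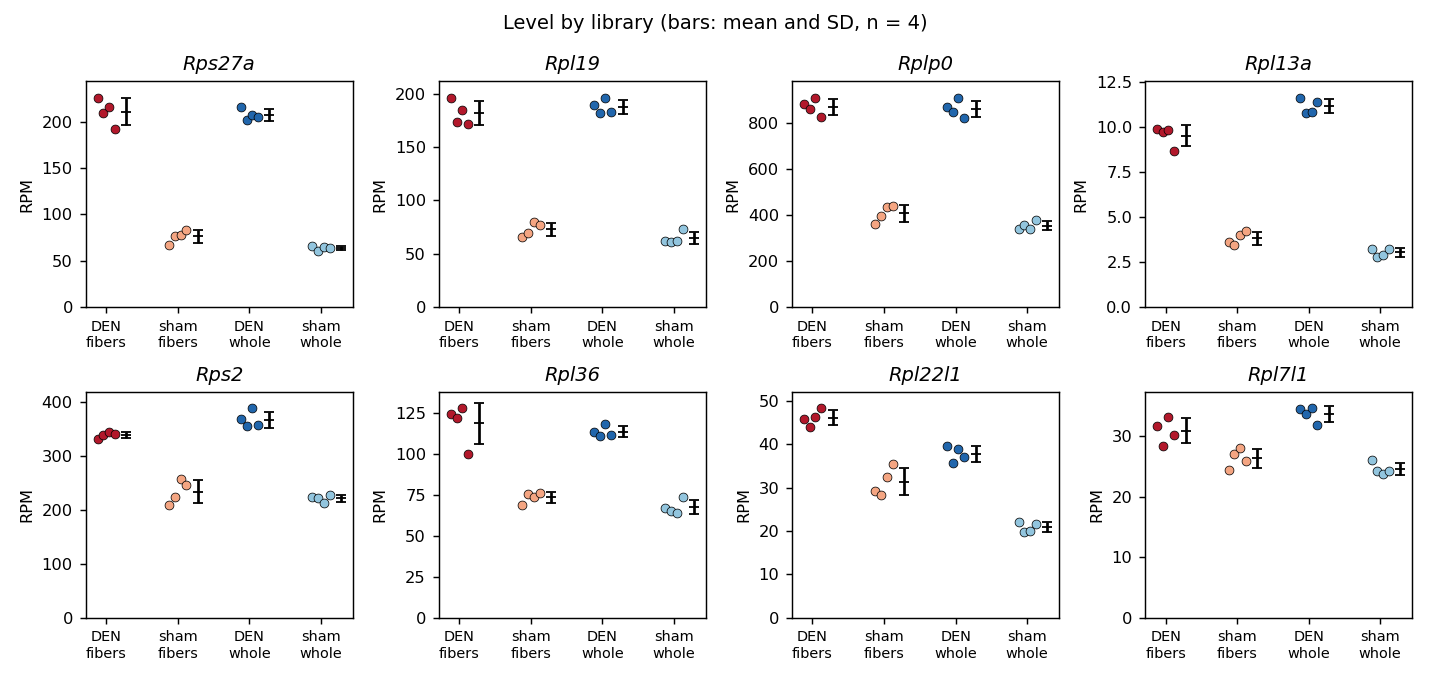
RPM in each of the 16 libraries for 8 members named for high, low or opposite changes, with the mean and SD of each group of 4 beside the points; every axis starts at 0. Rps27a lay at 192 to 226 RPM in DEN fibers and 67.0 to 83.1 RPM in sham fibers, whereas Rpl7l1 lay at 28.4 to 33.2 RPM in DEN fibers and 24.3 to 27.98 RPM in sham fibers.

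Each library was also scaled to the summed counts of the members, which gives a member's change relative to the family as a whole. On that scale 13 members were higher, 13 lower and 59 did not pass in fibers, where 9.48% of all genes were called higher and 59.9% lower. In whole muscle 25 were higher, 19 lower and 41 did not pass, where 8.11% of all genes were called higher and 73.4% lower. Rps27a stood above the family by 0.47 in fibers and 0.52 in whole muscle, Rps19 by 0.32 and 0.33, and Rpl19 by 0.32 and 0.36. Rps2 fell short of it at -0.46 in each preparation, Rpl36 at -0.31 and -0.43, Rpl22l1 at -0.44 and -0.33, and Rpl7l1 at -0.77 and -0.73.

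Paralogs can replace or accompany the common form of a ribosomal protein, and the ratio of the 2 mRNAs within a library does not depend on scaling. Rpl7l1, whose yeast relative works in ribosome assembly rather than in mature ribosomes, changed less than Rpl7, of the large subunit, which rose by 0.56 ± 0.06 in fibers and 0.81 ± 0.05 in whole muscle. It measured 31.6, 28.4, 33.2 and 30.1 RPM in DEN fibers against 24.3, 26.95, 27.98 and 25.9 RPM in sham fibers, and Rpl7 measured 368, 335, 364 and 328 RPM in DEN fibers against 147, 169.8, 181 and 176 RPM in sham fibers. Rpl7l1 made up 8.13 ± 0.307% of the pair in DEN fibers and 13.5 ± 0.594% in sham fibers. In whole muscle the share was 8.78 ± 0.146% in DEN and 14.2 ± 0.593% in sham (SD, n = 4 each). The groups were fully separated in both preparations. The difference in log2 ratio was -0.82 in fibers and -0.79 in whole muscle, each with a two-sided exact permutation p of 0.0286, the smallest that 4 against 4 libraries allow, and an adjusted p of 0.0714 over 15 tests, which did not pass. TMM-scaled, Rpl7l1 alone was -0.26 ± 0.05 in fibers (lower, adjusted p = 0.0019) and 0.03 ± 0.05 in whole muscle (adjusted p = 0.63). With libraries scaled to total counts it was 0.23 in fibers (adjusted p = 0.02), the opposite direction. In RPM it measured 34.5, 33.7, 34.5 and 31.8 in DEN whole muscle against 26.02, 24.2, 23.6 and 24.2 in sham whole muscle, so that on this scale every DEN library lay above every sham library in both preparations.

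Rpl22l1, which is known to increase when Rpl22 is lost, made up 25.6 ± 1.21% of its pair with Rpl22 in DEN fibers and 29.2 ± 1.77% in sham fibers. In whole muscle the share was 21.8 ± 0.359% in DEN and 22.8 ± 0.786% in sham. The difference in log2 ratio was -0.26 in fibers (exact permutation p = 0.0571, adjusted p = 0.107) and -0.08 in whole muscle (p = 0.114, adjusted p = 0.171), and neither passed. Between sham fibers and sham whole muscle it was 0.48 (exact permutation p = 0.0286, adjusted p = 0.0714) with no overlap of libraries. As a single gene Rpl22l1 was 0.07 ± 0.08 in fibers (adjusted p = 0.52) and rose by 0.42 ± 0.05 in whole muscle (adjusted p = 4.6e-05), while Rpl22 rose by 0.33 ± 0.06 and 0.51 ± 0.05.

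Rps27l, which p53 induces in human cells, made up 33.0 ± 1.07% of its pair with Rps27 in DEN fibers and 33.2 ± 1.43% in sham fibers. In whole muscle the share was 36.0 ± 1.54% in DEN and 36.2 ± 0.827% in sham. The difference in log2 ratio was -0.01 in both preparations (exact permutation p = 0.857 in fibers and 0.914 in whole muscle), smaller than the spread between libraries. Rps27l rose by 0.33 and 0.61 and Rps27 by 0.34 and 0.62, in fibers and in whole muscle.

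The remaining pairs had 1 scarce partner. Rps4l, annotated as a processed pseudogene, made up 0.635 ± 0.181% of its pair with Rps4x in DEN fibers and 1.04 ± 0.254% in sham fibers. In whole muscle the share was 0.805 ± 0.139% in DEN and 1.88 ± 0.396% in sham. Its difference in log2 ratio was -0.73 in fibers (exact permutation p = 0.0857, adjusted p = 0.143) and -1.23 in whole muscle (exact permutation p = 0.0286, adjusted p = 0.0714). Rps4x rose by 0.65 and 0.90, whereas Rps4l measured 2.27 ± 0.756 RPM in DEN fibers and 1.67 ± 0.354 RPM in sham fibers and 2.78 ± 0.508 RPM in DEN whole muscle and 2.60 ± 0.483 RPM in sham whole muscle. Rpl36al made up 1.05% of its pair with Rpl36a in DEN fibers, 0.963% in sham fibers, 0.617% in DEN whole muscle and 0.553% in sham whole muscle, and 24.5% of its exon bases lie under Gm49383 on the same strand. Its log2 ratio differed by 0.17 in fibers and 0.10 in whole muscle between DEN and sham (exact permutation p = 0.6 and 0.514), and Rpl36a rose by 0.48 and 0.87. Rpl39l had 9 counts over the 4 DEN fiber libraries, 4 over sham fibers, 19 over DEN whole muscle and 12 over sham whole muscle, and Rpl32l had 21, 10, 19 and 8. Rpl10l, a testis form of Rpl10, had 0 counts in all 16 libraries.

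**Figure D5:**
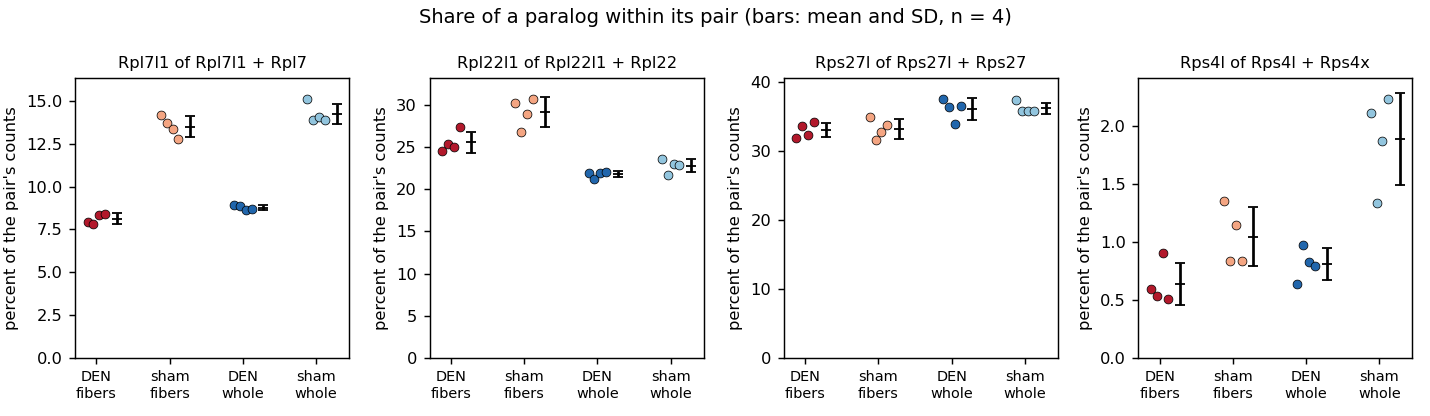
Share of the paralog in the summed counts of 4 pairs, in percent, for each library, with the mean and SD of 4 beside the points. Rpl7l1 made up 7.81 to 8.41% of its pair in DEN fibers and 12.8 to 14.2% in sham fibers, whereas the share of Rps27l overlapped between DEN and sham.

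Ribosomal protein genes have many processed copies, and reads that fit several places limit what a row measures. All stretches of the read length in each member's transcript were searched for among the other annotated transcripts, and the median member shared 33.93% of its stretches with another gene. Every stretch was unique in 10 rows, and over 50% were shared in 32 rows. The 307 rows named -ps held as many counts as 13.4 ± 0.150% of the members' sum in DEN fibers, against 12.97 ± 0.0752% in sham fibers. In whole muscle it was 13.3 ± 0.0159% in DEN and 12.9 ± 0.0671% in sham. All 11 ribosomal protein genes with under 10% of stretches shared rose in both preparations, where 27.1% of all genes were called higher in fibers and 34.0% in whole muscle. Their medians were 0.50 and 0.74, and the 28 with over 50% shared had medians of 0.56 and 0.84. The part of shared reads in these values was not tested.

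Of the 5 tested rows annotated as processed pseudogenes, 4 rose in each preparation, where 27.1% of all genes were called higher in fibers and 34.0% in whole muscle. Rps12l1 averaged 63.1 ± 4.89 RPM in DEN fibers and 28.5 ± 2.66 RPM in sham fibers, and Rpl6l 37.7 ± 1.44 RPM in DEN fibers and 17.9 ± 1.44 RPM in sham fibers. All 299 stretches of the read length in Rps12l1 also occur in Rps12, so its reads cannot be told apart from those of Rps12. In Rpl6l 61.61% of stretches are shared with other genes. Rps3a1 shows how close such copies are. Its row and those of Rps3a2 and Rps3a3 moved alike, at 0.37, 0.44 and 0.46 in fibers and 0.80, 0.77 and 0.75 in whole muscle. Reads from these rows cannot be told apart where the sequence is identical, so the values of the copies are uncertain. The next stretch covers bases 367 to 396 of the Rps3a1 transcript in GENCODE, on chromosome 3, and bases 234 to 263 of the copies on chromosomes 14 and 13, and the capital marks the base that differs from Rps3a1.
Rps3a1: agttgcgtttagaaaattcaagctaatcac
Rps3a2: agttgcgtttagaaaattcaagctaatcac
Rps3a3: agttgcgtttagaaaattcaagctaaCcac

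Rps10 and Rpl24 were also counted far below their family. Rps10 had 238 counts over the DEN fiber libraries and 129 over the sham fiber libraries, and 272 over DEN whole muscle and 132 over sham whole muscle. Its log2 fold change was 0.37 ± 0.25 in fibers (adjusted p = 0.23) and 0.61 ± 0.22 in whole muscle (adjusted p = 0.032). On the same strand, 20.6% of its exon bases lie under a read-through gene, and 47.0% of those of Rpl24 lie under Gm28037. Values of these rows are uncertain for that reason.

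Fibers and whole muscle were then compared under each condition. In sham, 45 of 85 members were higher in fibers and 2 were lower, where 25.5% of all genes were called higher and 23.2% lower, with a member median of 0.17. Among members with at least 10 RPM, Rpl22l1 (0.56 ± 0.08), Rpl10a (0.47 ± 0.06) and Rps27 (0.37 ± 0.06) had the highest values, and the lower rows were Rps4l (-0.66) and Rps6kl1 (-0.85). Rpl8, Rps9 and Rpl28, at -0.03, -0.02 and 0.01, did not pass. The count of higher members was 14 with upper-quartile factors, 28 with no filter on low counts and 69 with the trend on gene length removed. It was 23, 25 and 27 without sham whole muscle replicates 1, 2 and 3. Markers of other cells differed as well: 4 of 4 Schwann cell markers were higher in sham fibers (44.0 to 93.5 RPM summed, against 13.5 to 22.3 RPM in sham whole muscle), and 3 of 5 muscle stem cell markers were higher and 1 lower (84.4 to 131 RPM against 27.9 to 31.8 RPM). Of 8 macrophage markers 0 were higher and 4 lower in sham fibers, and of 7 muscle fiber genes 0 and 2. Of 5 pericyte and smooth muscle markers 1 was higher and 3 lower, and of 5 fibro-adipogenic progenitor markers 0 and 2. The part of these cell types in the difference was not tested.

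In DEN, 7 of 85 members were higher in fibers and 12 were lower, where 30.2% of all genes were called higher and 26.4% lower, with a member median of -0.03. Rpl22l1 (0.24 ± 0.05), Rpl10a (0.23 ± 0.06) and Rpl39 (0.17 ± 0.05) were higher in fibers, as were Rps25, Rpl12, Rpl26 and Rpl36al. Rpl36al, with 155 counts over the DEN fiber libraries and 93 over DEN whole muscle, had a value of 0.74 that reversed to -0.10 with all sharing copies pooled. Rpl13a (-0.27 ± 0.06), Rps9 (-0.25 ± 0.04) and Rplp2 (-0.25 ± 0.04) had the lowest values of those that passed. Upper-quartile factors gave 2 higher and 38 lower, and removal of the length trend gave 16 and 5. The higher count was also 4 with no filter or with copies pooled, and 3 with all libraries in 1 fit. It was 4 without DEN fibers replicate 1 or 2 and without DEN whole muscle replicate 2 or 4. All 5 muscle stem cell markers were higher in DEN fibers (181 to 192 RPM summed, against 82.6 to 96.5 RPM in DEN whole muscle), as were 4 of 5 endothelial markers (277 to 416 RPM against 214 to 257 RPM). Higher too were 3 of 3 tested Schwann cell markers, 3 of 5 of pericytes and smooth muscle and 2 of 5 of fibro-adipogenic progenitors, with 0 lower. Of 8 macrophage markers 4 were higher and 2 lower, and of 7 muscle fiber genes 1 and 4. The part of these cell types was not tested.

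The DEN effect was smaller in fibers than in whole muscle for most members in the fit to all 16 libraries. The difference, the log2 fold change in fibers less that in whole muscle, passed as lower for 57 of 85 members and as higher for 0 (edgeR quasi-likelihood test), where 11.8% of 17497 genes were called lower and 7.09% higher. It lay below 0 for 83 of the 85, with a median of -0.26 against -0.03 over all genes. Rpl13a (-0.63 ± 0.11, adjusted p = 0.0011), Rps3a1 (-0.44 ± 0.07, adjusted p = 0.00065) and Rpl36a (-0.40 ± 0.09, adjusted p = 0.0047) differed most among members with at least 10 RPM in a group. Rpl13a reached that level only in DEN whole muscle (10.8 to 11.6 RPM) and lay at 2.75 to 9.87 RPM in the other groups. The value of Rpl13a was also the lowest of all 85 tested members. Rps21, Rpl22l1, Rpl7a, Rplp2, Rpl23, Rps3a2 and Rpl27a followed at -0.37 to -0.34. The number passing rested on the scaling, the filter and single libraries: it was 9 with total counts, 30 with upper-quartile factors, 11 with no filter and 34 with the length trend removed, and leaving out any of 13 of the 16 libraries lowered it by over 1.5 times, to between 13 and 36. Those libraries were DEN fibers 2 (26) and 4 (16), sham fibers 1 (25), 2 (36) and 4 (14), DEN whole muscle 1 (13), 2 (28), 3 (14) and 4 (24), and sham whole muscle 1 (13), 2 (13), 3 (16) and 4 (32). DESeq2's Wald test gave 65 lower and 0 higher. No setting gave a higher member, and of the members above 0 Rps6kl1 had an unadjusted p of 0.039 and Rps4l of 0.39 in edgeR.

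Ribosomal proteins and translation genes outside the name rule give the setting. Of other ribosomal proteins, Rpsa (0.71 in fibers and 0.93 in whole muscle), Fau (0.65 and 0.88), Rack1 (0.38 and 0.67) and Rpl3 rose, while Rpl3l fell. Rpl3l is the paralog of Rpl3 found in striated muscle. Rpl3 averaged 176 ± 22.9 RPM in DEN fibers and 37.9 ± 6.50 RPM in sham fibers (log2 fold change 1.73), and Rpl3l 228 ± 26.5 RPM and 495 ± 64.4 RPM (-1.60). In whole muscle Rpl3 averaged 183 ± 8.38 RPM in DEN and 23.95 ± 2.47 RPM in sham, a log2 fold change of 2.50 that no member matched.

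The lists that follow are set against the same shares of all genes, 27.1% higher and 27.0% lower in fibers and 34.0% and 32.2% in whole muscle. Of 16 other mRNAs known to carry a TOP tract, 8 rose and 0 fell in fibers, and 14 rose and 0 fell in whole muscle, with medians of 0.19 and 0.46. The elongation factor Eef1a1 averaged 2269 ± 183 RPM in DEN fibers and 275 ± 67.01 RPM in sham fibers, a log2 fold change of 2.56, and 2.93 in whole muscle. Its muscle form Eef1a2 fell, at -0.72 and -0.49. Eef1b2 rose by 0.82 and 1.17, and Tpt1, a growth-related protein, by 0.50 and 0.75. Naca, which binds new peptides at the ribosome, was -0.02 and -0.12 and did not pass.

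Among 44 genes of ribosome biogenesis, 22 rose and 3 fell in fibers, and 34 rose and 1 fell in whole muscle, with medians of 0.17 and 0.42. Riok2, a kinase of small subunit maturation, rose by 0.87 and 1.28, and Bop1, a large subunit processing factor, by 0.82 and 0.95. The rRNA methylase Fbl rose by 0.30 and 1.09. Nop58, of the same small nucleolar particle, fell by 0.51 in fibers (adjusted p = 0.042) and rose by 0.81 in whole muscle. Myc, which drives ribosome genes, was -0.21 in fibers (adjusted p = 0.45) and rose by 1.77 in whole muscle (adjusted p = 2.7e-05).

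Of 13 regulators of translation, 4 were higher and 8 lower in each preparation. The share higher was near that of all genes, whereas the share lower was above it. Mtor rose by 0.82 and 0.66, whereas Eif4ebp2, a repressor of cap binding, was lower at -1.15 and -1.26. Larp1, which holds TOP mRNAs, was lower at -0.30 and -0.46, and the elongation factor kinase Eef2k at -1.10 and -0.70. Of 23 initiation factors, 10 rose and 6 fell in fibers, and 17 rose and 6 fell in whole muscle. Of the ribosomal proteins of the mitochondrion, 77 of 78 tested, 12 were higher and 23 lower in fibers, and 25 higher and 23 lower in whole muscle, with medians of -0.06 and 0.04. Apart from the count higher in fibers, these were near the shares of all genes.

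Per gene length, levels differed widely among members. Rplp1 led in all 4 groups in RPKM (RPM per kilobase of gene), at 962 ± 57.6 in DEN fibers and 517 ± 44.3 in sham fibers. In whole muscle it averaged 965 ± 65.0 RPKM in DEN and 457 ± 24.9 RPKM in sham. Rplp0 and Rps15 came next in every group. They averaged 524 ± 20.8 and 497 ± 21.7 RPKM in DEN fibers and 245 ± 22.9 and 250.8 ± 22.4 RPKM in sham fibers. In DEN fibers Rplp0 lay above Rps15 in each library, whereas in sham fibers they did not differ beyond their spread. In whole muscle the order was the opposite, with Rps15 above Rplp0 in each DEN and each sham library. Rps15 and Rplp0 averaged 533 and 519 RPKM in DEN whole muscle and 237 and 213 RPKM in sham whole muscle. Rpl4, also of the large subunit, averaged 383 RPKM in DEN fibers and 211 RPKM in sham fibers. The lowest of the 75 ribosomal protein genes was Rps10, at 0.476 ± 0.122 RPKM in DEN fibers and 0.262 ± 0.0807 RPKM in sham fibers. How the gene length was defined is not given in the sources used here, so levels of genes with long rare transcripts are uncertain.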

How the data were processed

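RNA sequencing libraries of 4 DEN and 4 sham samples each of EDL fibers and of whole TA were compared. The authors made directional, polyA-selected libraries read from 1 end, and per the submitters' processing notes used bcl2fastq 2.20.0.422, cutadapt 2.1, TopHat2 2.1.0 on GRCm38 and featureCounts 1.6.5, counting by strand. The deposited counts are whole reads per gene, with at most 1 alignment kept per read, so a read that fits a gene and its pseudogene is counted in 1 of them. The deposited RPM are counts scaled to a common library total, and recomputation differed by at most 5.8e-11. The deposited RPKM are RPM over a gene length whose definition is not given in the sources used here.

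Counts were tested with edgeR 4.0.16 (R 4.3.3): filterByExpr by group with a minimum count of 10, TMM factors, quasi-likelihood F-test, and Benjamini-Hochberg adjustment over all tested genes at 0.05. Comparisons of 2 groups used their 8 libraries and the interaction all 16. Standard errors were taken from the log2 fold change and F. Paralog ratios were log2 of counts plus 0.5, compared with two-sided exact permutation tests. Sequences are from RefSeq (GRCm38.p6) and GENCODE M21. The test was checked on simulated data. Replicates differed by more than sampling noise (lowest mean chi-square per gene 13.2). The labels do not say which mice the libraries came from, and the study's methods state that replicates were different mice.

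Genes were named by rule: the 3 highest and 3 lowest members of each comparison with at least 10 RPM in a group, members opposite to most, the 10 with the largest interaction, and fixed lists of paralogs and of members with a known role. The members, lists and rule were chosen with earlier results of these data known. Alternatives were other scalings (total counts, upper quartile, DESeq2 1.42.0), no filter, a replicate block, pseudogene counts added, the length trend removed, all libraries in 1 fit, a pseudocount of 5 counts for paralogs, and leaving out each library. Pooling every sharing copy was chosen after seeing the data. No column of another sample was present (0).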

Additional observations from a re-analysis of the deposited data

Results flagged for a closer look

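Among 220 groups of 4 libraries (named members in RPM, shares and paralog shares), 14 had a library far from the other 3, where chance alone gives about 1 in 20. Sham fibers replicate 1 was low for Rpl11 (78.96 RPM), Rpl38 (42.2 RPM), Rpl41 (128 RPM) and Rps3a2 (34.6 RPM). DEN fibers replicate 4 was low for Rpl13a (8.67 RPM) and Rpl26 (226 RPM). Both libraries had the lowest summed member share of their group, 0.769% and 1.61%, so low values there were not limited to these genes. In whole muscle, DEN replicate 3 was high for Rps21 (203 RPM) and Rps3a3 (24.1 RPM), DEN replicate 4 was low for Rps4x (325 RPM), and sham replicate 4 was high for Rpl19 (72.8 RPM). Of the paralog shares, that of Rpl22l1 was low in DEN whole muscle replicate 2 (21.3%), those of Rps27l and Rpl7l1 were high in sham whole muscle replicate 1 (37.4% and 15.1%), and that of Rpl36al was high in sham fibers replicate 2 (1.501%).

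The DEN effect differed between fibers and whole muscle for 57 of 85 members in the test of the difference, all of them lower in fibers. Of all genes, 11.8% were called lower and 7.09% higher. The count was 13 to 46 with a library left out and also fell with other scalings and with no filter, as given above. Muscle and preparation cannot be told apart in this difference. Among the 57 members, the largest differences were -0.63 for Rpl13a, -0.44 for Rps3a1, -0.40 for Rpl36a, -0.37 for Rps21, -0.37 for Rpl22l1, -0.37 for Rpl7a, -0.36 for Rplp2, -0.35 for Rpl23, -0.35 for Rps3a2 and -0.34 for Rpl27a.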

How the results depend on the processing

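The counts of members higher in DEN stayed within 77 to 83 in fibers and 81 to 83 in whole muscle under every alternative run. Members lower in fibers numbered 0 with total counts, 2 with all 16 libraries in 1 fit and 1 to 2 with a library left out, and in whole muscle 2 with the length trend removed and 1 to 2 with a library left out. Fibers against whole muscle in sham gave 14 higher members with upper-quartile factors, 28 with no filter, 69 with the length trend removed and 23 to 46 with a library left out. In DEN this comparison gave 2 higher with upper-quartile factors, 4 with no filter, 4 with all sharing copies pooled, 16 with the length trend removed, 3 with all libraries in 1 fit and 4 to 10 with a library left out. It gave 7 lower with total counts, 38 with upper-quartile factors, 5 with the length trend removed and 8 to 18 with a library left out. The interaction gave 9 lower with total counts, 30 with upper-quartile factors, 11 with no filter, 34 with the length trend removed and 13 to 46 with a library left out. The summed share ratio was 1.74 in fibers and 2.00 in whole muscle without mitochondrial and top genes. Rpl7l1 in fibers reversed to 0.23 with total counts, whose construction shifts all genes by 0.49, and Rpl36al in DEN fibers against DEN whole muscle reversed to -0.10 with copies pooled. No paralog ratio passed under any alternative tested. Rpl36al over Rpl36a, not called, was -0.01 in fibers and -0.23 in whole muscle with a pseudocount of 5, and the sign of Rps27l over Rps27 varied with the library left out. Elsewhere the cause was not tested.

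The replicate numbers did not pair the samples (correlations of same-numbered deviations -0.09 to 0.29). With a replicate block 78 members were higher in fibers and 82 in whole muscle, 52 in sham and 5 in DEN fibers against whole muscle (10 lower), and the interaction gave 49 lower.

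Over the named members' values, 3187 of 3660 alternatives kept their side of the threshold, 395 lost the call, 76 gained one and 2 reversed. A reversal was counted only where the value or its alternative was called. Sign changes of values called in neither fit are therefore counted among the 3187. With 4 libraries a group, paralog ratios could not pass after adjustment unless most tests were at the smallest p, and Rps10, Rpl36al, Rps4l and Rps6kl1 had low counts.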
